A study of Homo sapiens with 8 samples.

Results

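The 46 genes described here are interferon-stimulated genes. They were chosen by name, with earlier results of these data known, as a list of well-known interferon-induced transcripts. Each was represented by the probe set that names the gene alone and had the highest mean log2(signal + 10) over the 8 arrays. All 46 had such a probe set among the 19775 genes the array covered in that way, and all 46 passed the filter on low signal, a signal above 60.0 on at least 2 arrays, which 14162 genes passed. No sample of the series was given interferon, so the name of the list rests on what is known of the genes elsewhere.

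Expression was measured on 8 Affymetrix arrays from HEL cells, an established human line of erythroleukaemia origin whose JAK2 kinase carries an activating mutation, and the series set the profile of drug-treated cells beside that of knockdown cells. The drug arm holds 2 arrays of cells that received CEP701 (lestaurtinib, an inhibitor of the kinases JAK2 and FLT3) at 0.5 µM for 16 h, and 2 of cells that received DMSO, its vehicle, labelled with the same 16 h. The shRNA arm holds 2 arrays of a stable line carrying a lentiviral pLKO vector with 1 shRNA against the arginine methyltransferase PRMT5, and 2 of cells with a scramble shRNA. All groups were grown in the same serum-containing medium, and neither a clone number nor separate cultures are given in the labels, so each p-value covers no more than the spread among the arrays as sampled, and that spread may be technical.

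Interferons are secreted proteins that bind receptors on the cell surface, where JAK kinases phosphorylate STAT proteins, which then enter the nucleus and, with IRF9, bind the interferon-stimulated response element of target genes. Viral RNA or DNA in the cytoplasm is read by sensors such as RIGI and IFIH1, which lead to interferon production and are themselves interferon-induced. The induced proteins include inhibitors of translation, enzymes that trigger RNA decay, membrane proteins that block virus entry or release, and regulators that end the response. Many of these genes also have a low baseline level without added interferon.

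The arrays fell into the 2 arms before any gene list was considered: across 14162 genes, arrays of a single group had Pearson's r of 0.964 to 0.978, arrays of 1 arm but different groups 0.954 to 0.972, and arrays of different arms 0.804 to 0.845. The targeted gene, PRMT5, gave signals of 664 and 315 on the PRMT5 shRNA arrays, against 1794 and 984 on the scramble arrays, a log2 difference of -1.52 ± 0.35 (SE) that missed the threshold (limma, Benjamini-Hochberg adjusted p = 0.217). Within the pairs of arrays that share a title suffix it was -1.42 and -1.61, and with those pairs as a replicate block PRMT5 passed (adjusted p = 8.91e-05). Signals are linear, in the arrays' own units, and are compared only within a probe set. With 2 arrays in each group, their number limits the precision of every value.

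Promoters of 6 of the genes are shown here because the results turn on these genes and their windows hold response-element matches. The first 4, IFI27, IFIH1, IFIT3 and ISG15, passed the test for CEP701, and IFI44L and BST2 were added after their values were seen. Each runs 5′ to 3′ on the gene's own strand over 300 bases, 250 before the start and 50 after it, from RefSeq on build GRCh38.p14. IFI27 lies at chr14:94110486-94110785 on the plus strand, IFIH1 at chr2:162318635-162318934 on the minus strand, IFIT3 at chr10:89327747-89328046 on the plus strand, ISG15 at chr1:1013247-1013546 on the plus strand, IFI44L at chr1:78620198-78620497 on the plus strand and BST2 at chr19:17405581-17405880 on the minus strand. Capitals mark every match to the core of the interferon-stimulated response element, which is GAAA, then any 2 bases (NN), then GAAA, on either strand, so that a match on the other strand reads TTTC, any 2 bases, TTTC.
IFI27: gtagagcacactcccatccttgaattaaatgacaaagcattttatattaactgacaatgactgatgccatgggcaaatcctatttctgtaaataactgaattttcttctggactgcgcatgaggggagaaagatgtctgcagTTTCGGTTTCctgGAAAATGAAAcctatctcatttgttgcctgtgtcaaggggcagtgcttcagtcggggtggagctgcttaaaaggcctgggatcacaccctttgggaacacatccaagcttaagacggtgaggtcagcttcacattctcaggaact
IFIH1: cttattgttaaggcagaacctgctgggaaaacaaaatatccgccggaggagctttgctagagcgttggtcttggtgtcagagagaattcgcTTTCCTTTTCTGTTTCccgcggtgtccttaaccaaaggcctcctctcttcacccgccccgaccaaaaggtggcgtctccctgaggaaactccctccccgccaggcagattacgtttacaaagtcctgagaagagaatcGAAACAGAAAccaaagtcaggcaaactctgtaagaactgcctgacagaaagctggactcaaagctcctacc
IFIT3: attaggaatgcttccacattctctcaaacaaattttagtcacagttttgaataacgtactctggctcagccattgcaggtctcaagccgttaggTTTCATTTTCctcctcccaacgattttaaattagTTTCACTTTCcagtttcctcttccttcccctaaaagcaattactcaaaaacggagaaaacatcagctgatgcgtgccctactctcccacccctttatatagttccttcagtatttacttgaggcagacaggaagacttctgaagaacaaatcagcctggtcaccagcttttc
ISG15: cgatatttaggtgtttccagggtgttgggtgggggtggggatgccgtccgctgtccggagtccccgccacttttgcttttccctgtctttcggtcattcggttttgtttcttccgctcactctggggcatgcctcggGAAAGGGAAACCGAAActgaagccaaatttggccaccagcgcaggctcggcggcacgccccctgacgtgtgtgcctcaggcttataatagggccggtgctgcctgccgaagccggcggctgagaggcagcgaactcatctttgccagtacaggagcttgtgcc
IFI44L: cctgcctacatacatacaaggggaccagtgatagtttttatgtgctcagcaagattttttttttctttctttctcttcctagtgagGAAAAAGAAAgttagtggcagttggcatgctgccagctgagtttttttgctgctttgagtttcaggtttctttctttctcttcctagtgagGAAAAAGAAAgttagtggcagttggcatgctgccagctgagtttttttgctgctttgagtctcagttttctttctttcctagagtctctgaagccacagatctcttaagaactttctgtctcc
BST2: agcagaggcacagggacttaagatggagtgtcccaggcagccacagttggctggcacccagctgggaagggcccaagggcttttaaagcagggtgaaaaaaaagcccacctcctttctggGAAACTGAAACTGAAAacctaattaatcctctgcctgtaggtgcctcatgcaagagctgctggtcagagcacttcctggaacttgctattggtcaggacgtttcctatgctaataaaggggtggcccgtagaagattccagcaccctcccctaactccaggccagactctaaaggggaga

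In IFIH1, ISG15 and BST2, a pair of matches overlap and form 1 longer capital run, and in IFIH1 a further match lies close to the start. The 2 matches of IFI44L sit in a stretch that is repeated within the window. RefSeq's table held 37 of the 46 genes, 11 of them with several start sites, and a gene was counted where any of its windows held the motif. The response-element core was found in 26 of the 37 genes (70.3%), against 4.38% of the 27305 genes with a promoter of the same length, and 4 of the 37 genes had matches that overlap each other. The gamma-activated site TTCNNNGAA, the element that STAT dimers bind, was found in 12 of the 37 (32.4%), against 9.38% of all genes, and in 5 genes it overlapped a match to that core. These matches describe letters in the windows and were not tested for binding.

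The comparison of CEP701 with DMSO addressed what the kinase inhibitor changed within 16 h. In the test over all genes, 6 of the 46 interferon-stimulated genes rose with CEP701, 0 fell and 40 did not pass, where 3.74% of all genes rose and 2.04% fell. The 6 are an RNA sensor (IFIH1), a pair of IFIT proteins (IFIT2, IFIT3), the ubiquitin-like modifier ISG15, and the small membrane proteins IFI6 and IFI27. The median log2 difference of the 46 genes was 0.30, beside 0.10 for all genes, and 33 of the 46 were positive. Both CEP701 arrays lay above both DMSO arrays for 23 of the 46 (36.3% of all genes did so) and below both for 9 (25.7% of all genes). In these bulk samples, more cells that express a gene and more RNA per cell cannot be told apart.

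Among the RNA sensors, IFIH1 (MDA5), which binds long double-stranded RNA, gave signals of 922 and 827 on the CEP701 arrays, against 320.0 and 348 on the DMSO arrays. The groups were well apart, and the log2 difference was 1.36 ± 0.19 (SE; limma adjusted p = 7.43e-03). The other 2 sensors did not pass. RIGI, which binds RNA with a free triphosphate end, gave 673 and 655 with CEP701, against 378 and 500.3 with DMSO (log2 difference 0.60), and DHX58 (LGP2), which modulates both sensors, was near the bottom of the scale on all 4 drug-arm arrays. IFIH1's value depended on its probe set: the others for this gene, both dim in the drug arm, had log2 differences of 0.38 and -0.50, and the mean over its probe sets was 0.41 (adjusted p = 0.384).

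The IFIT proteins bind foreign RNA caps and ends and hold back translation. IFIT2 gave 586 and 581 on the CEP701 arrays, against 104 and 152 on the DMSO arrays. This was the largest rise among the 46 genes, with log2 difference 2.13 ± 0.34 (SE; adjusted p = 0.0128), and the CEP701 arrays were almost equal. IFIT3, its partner in a complex, gave 1611 and 1519 with CEP701, against 856 and 873 with DMSO, a tight difference of 0.85 ± 0.17 on the log2 scale (adjusted p = 0.0256). The other probe set of IFIT3 was at 0.45, and the mean over its probe sets was 0.65 and did not pass (limma adjusted p = 0.0616). IFIT1 lay at 199.9 and 182 with CEP701, against 38.6 and 112 with DMSO. The groups of IFIT1 did not overlap, but the DMSO arrays were far apart, and its difference of 1.39 ± 0.39 did not pass (adjusted p = 0.0703). IFIT5 overlapped between the groups at its chosen probe set (log2 difference 0.18), while its other probe set, which gave 129.5 and 168 with CEP701, against 14.8 and 98.7 with DMSO, was at 1.60.

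ISG15, which is attached to other proteins during the response, gave 2423 and 2375 on the CEP701 arrays, against 1466 and 1354 on the DMSO arrays. The difference of 0.76 ± 0.13 on the log2 scale was small beside that of IFIT2 but larger than the spread within either group (adjusted p = 0.0147). The other 3 genes of the ISG15 system did not pass. HERC6, a relative of HERC5, lay on the same side as ISG15, at 631 and 728 with CEP701, against 457 and 426 with DMSO (log2 difference 0.61, adjusted p = 0.0767). HERC5, the ligase that attaches ISG15, gave 1213 and 969.6 with CEP701, against 1306 and 1457 with DMSO (log2 difference -0.34). USP18, the protease that removes ISG15 and also restrains the type I receptor, gave 314 and 287 with CEP701, against 453 and 408 with DMSO (-0.50). Both CEP701 arrays were the lower pair for HERC5 and USP18 and the higher pair for HERC6 (adjusted p = 0.259 for HERC5 and 0.220 for USP18).

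IFI6, a small antiviral protein of internal membranes, gave 1179 and 1233 on the CEP701 arrays, against 777 and 859.8 on the DMSO arrays (log2 difference 0.56 ± 0.13, adjusted p = 0.0419). IFI27, a small mitochondrial membrane protein, gave 48.8 and 104 with CEP701, against 8.63 and 20.3 with DMSO. Its groups did not overlap, but every DMSO value and 1 CEP701 value lay under the 60.0 of the filter, so its log2 difference of 1.78 ± 0.38 (adjusted p = 0.0309) rests on dim signals and on the 10 added before the log. In the same family, IFITM1, a membrane protein that blocks virus entry, lay lower with CEP701, at 5795 and 4833, against 7175 and 7329.6 with DMSO, and did not pass (log2 difference -0.45, adjusted p = 0.0982). The chosen probe sets of IFITM1, IFITM2 and IFITM3 carry suffixes for probes that can match several transcripts, and these genes are near-identical in part, so their signals may share target RNA.

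No transcription factor of the list passed: IRF1, IRF7 and IRF9 had log2 differences of 0.27, 0.17 and -0.30, with overlapping groups. Of the 6 oligoadenylate synthetases, kinases and nucleases, 0 passed. OAS2, which makes the short oligoadenylates that switch on a latent RNase, gave 35.0 and 22.2 with CEP701, against 8.71 and 4.57 with DMSO, all of them dim (1.21 ± 0.32, adjusted p = 0.0612). Of the 10 MX proteins and other effectors, 0 passed, and EPSTI1 was nearest, at 897 and 1012 with CEP701, against 587 and 678 with DMSO (0.59 ± 0.15, adjusted p = 0.0523). PARP proteins, DTX3L and the nuclear proteins of the list lay between -0.13 and 0.60, and 0 of 7 passed.

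**Figure D1:**
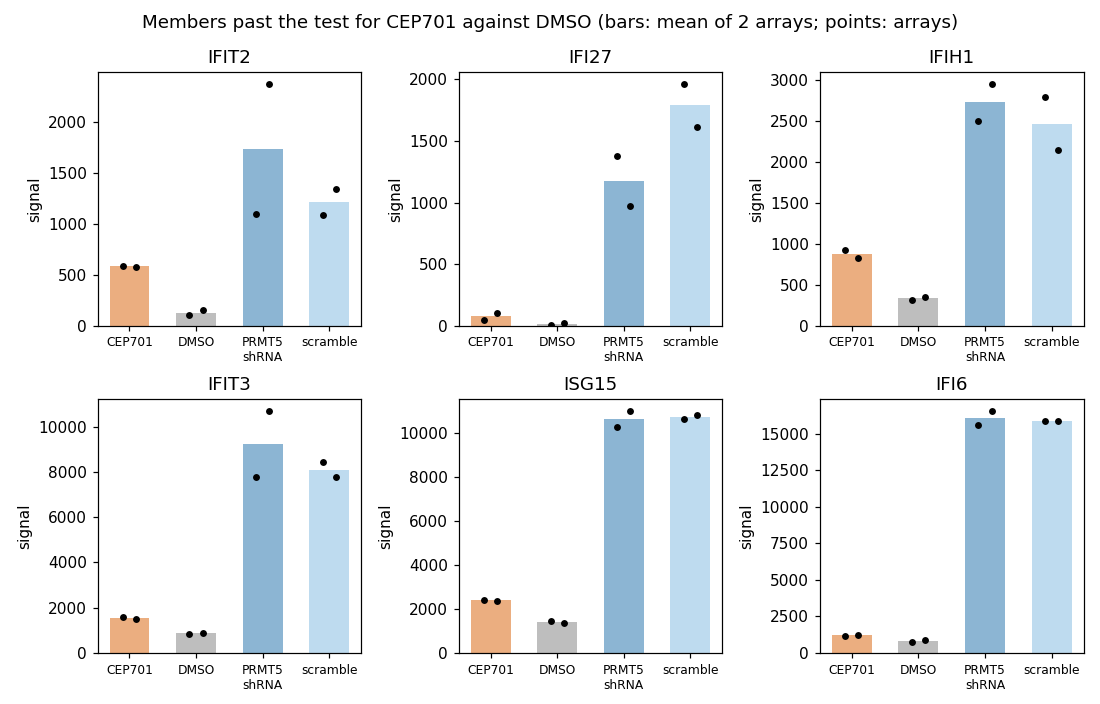
Signal (linear, array units) of the 6 interferon-stimulated genes that passed the test for CEP701 against DMSO, with bars for the mean of 2 arrays and points for single arrays, in the order CEP701, DMSO, PRMT5 shRNA, scramble. In each panel both CEP701 points lie above both DMSO points and below all points of the shRNA arm, as for IFIT2 at 586 and 581 with CEP701, against 104 and 152 with DMSO.

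The CEP701 calls rested on all 4 drug-arm arrays: leaving out any 1 of them left 0 of the 46 genes past the test, with 0.0424% to 0.353% of all genes passing, where 5.78% passed with all arrays. With the arrays scaled to the poly-A spike-in controls, which put the all-gene median at -0.39, IFIT2 was higher (log2 difference 1.64), IFITM1 (-0.97) and USP18 (-1.01) were lower, and the median of the 46 genes was -0.21, 0.18 above that of all genes, beside 0.20 above it with the deposited scaling. With a replicate block in the shRNA arm, whose arrays share a title suffix in pairs, 16 of the 46 genes were higher and 1 lower, where 22.3% of all genes passed.

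The comparison of PRMT5 shRNA with scramble addressed what knockdown of the methyltransferase changed. In it 0 of the 46 genes passed in either direction, where 1 gene of all tested rose (0.00706%) and 0.141% fell. By limma, 0 of the 46 had an unadjusted p under 0.05 (6.69% of all genes did), the lowest adjusted p was 0.775, and 0 passed under any of the 22 alternatives, the replicate block included. Log2 differences ran from -0.62 for IFI27 to 0.60 for DHX58, with 37 of the 46 positive and a median of 0.13, beside 0.00 for all genes. Both PRMT5 shRNA arrays lay above both scramble arrays for 13 of the 46 (14.1% of all genes did so) and below both for 3 (16.1%).

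The genes of lowest unadjusted p here were OAS1, IFI35 and MX1. OAS1, an oligoadenylate synthetase, gave 2076 and 2809 on the PRMT5 shRNA arrays, against 1819 and 1796 on the scramble arrays (log2 difference 0.42 ± 0.20). MX1, a GTPase that traps viral nucleoproteins, gave 7382 and 9171 with PRMT5 shRNA, against 6228 and 5339 with scramble (0.51 ± 0.26). Both were higher on each knockdown array, by less than the test needs at this spread. IFI27 ran the other way, at 1381 and 969.8 with PRMT5 shRNA, against 1962 and 1615 with scramble (-0.62 ± 0.38).

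The positive median rested on 1 array. Within the pair that shares the first title suffix, the median of the 46 genes was 0.01, with 24 positive, and within the second pair it was 0.23, with 36 positive. PRMT5 shRNA replicate 2 was above replicate 1 for 38 of the 46 genes, where 52.4% of all genes were, and without replicate 2 the median of the 46 was -0.02 relative to all genes. That array also had the highest ratio of 5′ over 3′ signal for the actin control probe sets, 0.335, against 0.116 to 0.199 on the other 7 arrays. For the GAPDH control probe sets its ratio was 0.778, within the 0.729 to 0.883 of the other 7 arrays. The part of these ratios in the result was not tested.

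**Figure D2:**
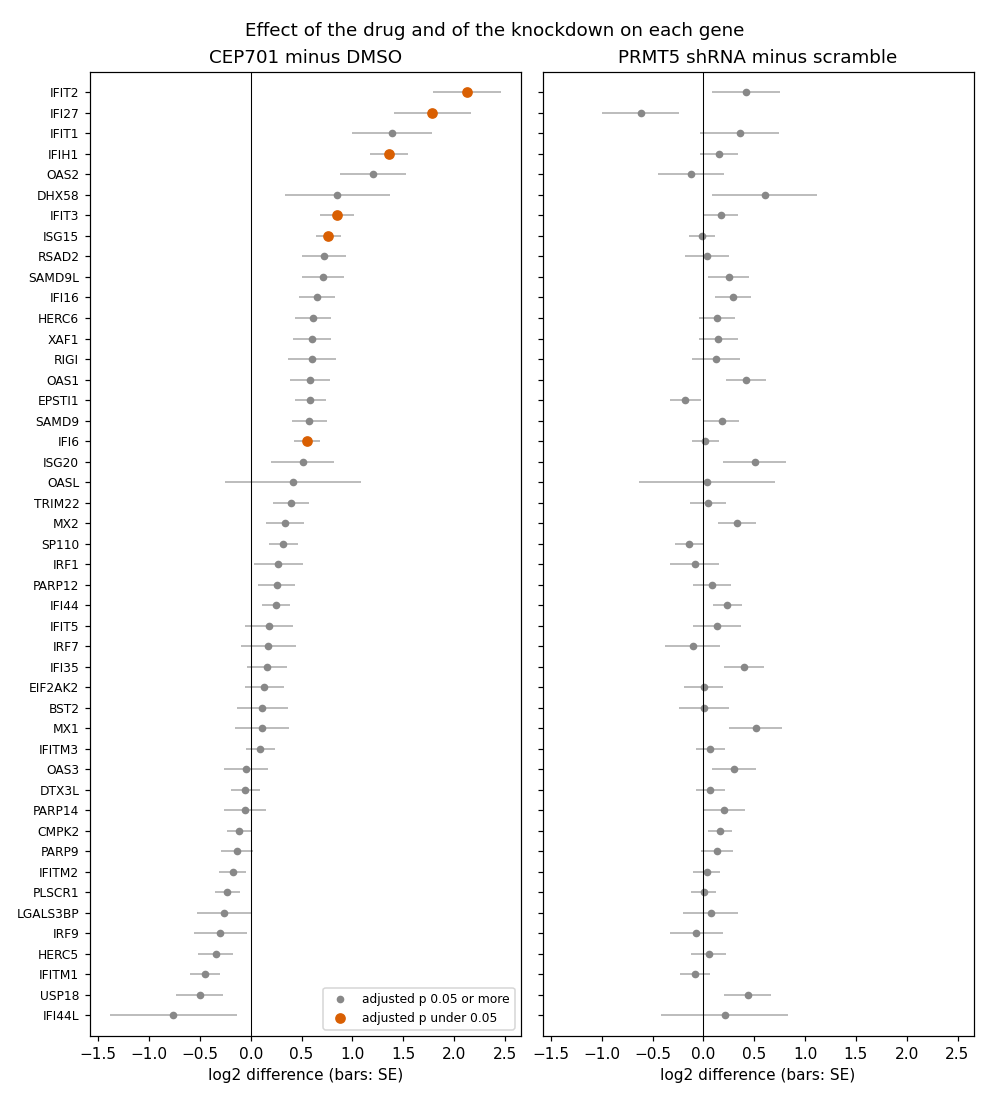
Log2 difference of each of the 46 genes for CEP701 minus DMSO (left) and PRMT5 shRNA minus scramble (right), with bars for the SE and orange points for adjusted p under 0.05, ordered by the left panel. The left panel runs from -0.76 (IFI44L) to 2.13 (IFIT2) with 6 orange points, and the right panel from -0.62 (IFI27) to 0.60 (DHX58) with 0.

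The drug effect minus the knockdown effect, which share no array, was tested as a difference of the 2 log2 differences. It passed for 0 of the 46 genes, where 1.43% of all genes passed, and 11 of the 46 had an unadjusted p under 0.05, near the 19.9% of all genes that did. IFIH1 had the lowest adjusted p (0.0613), with a difference of 1.21 ± 0.26 (SE). IFI27 was at 2.40 ± 0.54 (adjusted p = 0.0655), and ISG15 at 0.78 ± 0.18 (adjusted p = 0.0702). The genes that were lower on both knockdown arrays, IFI27, EPSTI1 and SP110, were all higher on both CEP701 arrays. USP18, CMPK2 and, narrowly, PARP9 had the opposite arrangement. OAS1, MX2, DHX58, IFI44, SAMD9L, XAF1, HERC6 and ISG20 were higher on both knockdown arrays and on both CEP701 arrays. For all genes, both CEP701 arrays were above both DMSO arrays for 36.3% and below for 25.7%. Both knockdown arrays were above both scramble arrays for 14.1% and below for 16.1%. The share of all genes with either arrangement was not computed, so these genes are listed and not read as a relation between the effects. With the replicate block in the shRNA arm, 8 of the 46 were higher and 1 lower in the drug effect minus the knockdown effect. In that fit 17.3% of all genes passed.

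The widest differences among the 46 genes lay between the arms. Against DMSO, scramble cells had 42 of the 46 higher and 0 lower, where 25.5% of all genes were higher and 20.3% lower, with a median log2 difference of 2.28, beside 0.11 for all genes. All 4 shRNA-arm arrays were above all 4 drug-arm arrays for 43 of the 46, where 24.6% of all genes were. Scramble exceeded DMSO at least 2-fold for 41 of the 46 genes (21.2% of all genes), at least 8-fold for 17 (4.45%) and at least 64-fold for 5 (0.530%), on the scale of signal + 10. These counts depend on the scale: with 50 added the numbers at 2-fold, 8-fold and 64-fold were 41, 14 and 0, and with poly-A scaling 33, 11 and 1. The counts in this paragraph include DHX58, OAS2, OASL, IFI27 and IFI44L, which passed the filter through the shRNA arm alone. Of these, IFI44L, IFI27 and OAS2 are among the genes at 64-fold. The lentivirus, the making of a stable line and the vehicle differ between the arms, along with anything that differed in how the cells were grown or hybridized, and these cannot be told apart. Some markers of other blood cells also differed between the arms, as given below. A difference in the cells themselves cannot be told apart from the rest either. This comparison shares the DMSO arrays with that of CEP701, so the values for each gene are given side by side and not as a relation.

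**Figure D3:**
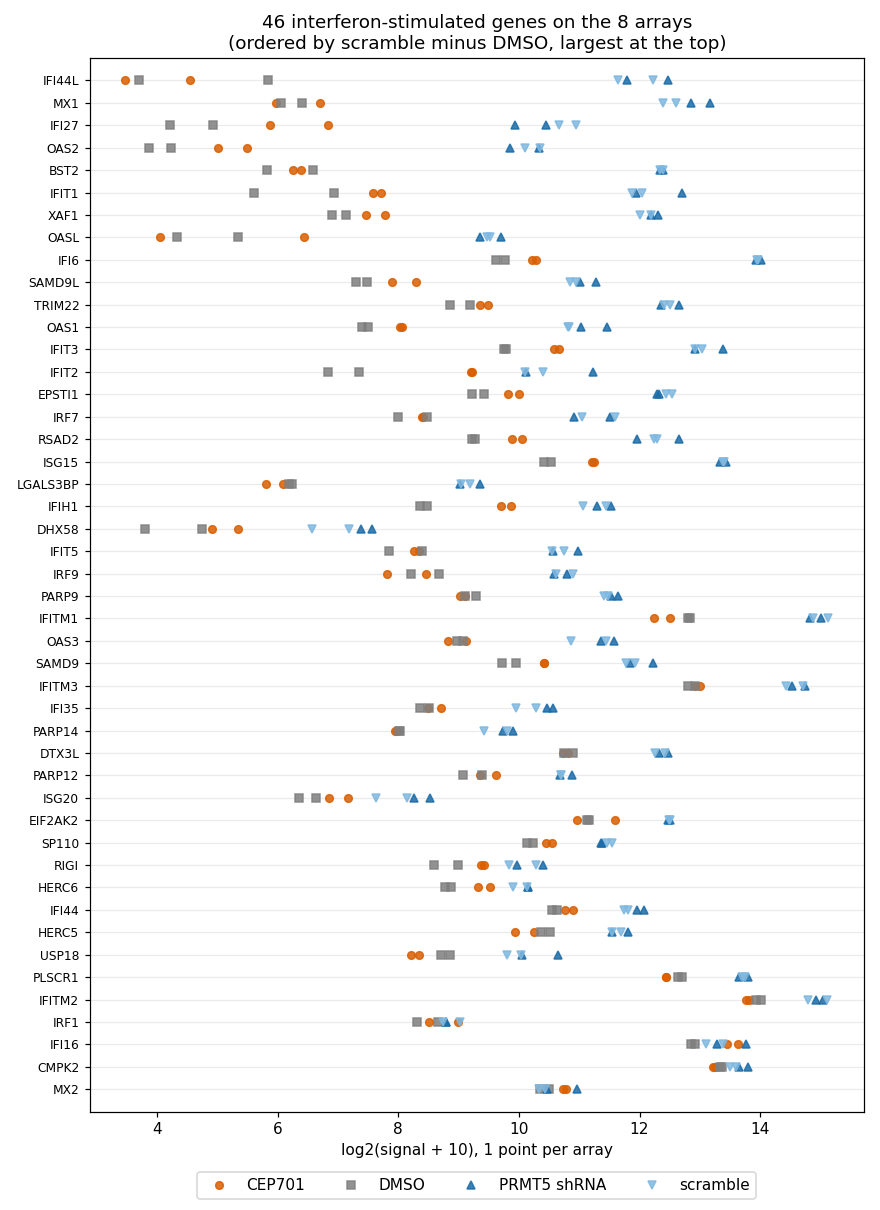
The 46 interferon-stimulated genes on the 8 arrays as log2(signal + 10), 1 point per array, ordered from the largest scramble minus DMSO difference at the top (IFI44L, 7.16) to the smallest at the bottom (MX2, -0.04). The shRNA-arm triangles lie right of all drug-arm points for 43 genes, and the arms overlap for MX2, IFI16 and IRF1.

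IFI44L, an interferon-induced protein whose activity is less settled, had the largest difference. It gave 3183 and 4750.0 on the scramble arrays, against 3.02 and 47.5 on the DMSO arrays (log2 difference 7.16 ± 0.63, adjusted p = 2.29e-05). It also gave 3551 and 5687 with PRMT5 shRNA and 13.4 and 1.11 with CEP701, so that the gene was bright in the whole shRNA arm and at the bottom of the scale in the drug arm. With both DMSO arrays under 60.0, the size of the fold depends on the added constant: the log2 difference was 8.12 with 1 added and 5.78 with 50. The same holds for DHX58, OAS2, OASL and IFI27, which were also under 60.0 on both DMSO arrays; these 5 genes passed the filter through the shRNA arm alone. The folds of MX1 and BST2 shrink too, to log2 differences of 5.66 and 5.53 with 50 added.

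MX1 gave 6228 and 5339 on the scramble arrays, against 74.3 and 56.5 on the DMSO arrays (log2 difference 6.27 ± 0.26). BST2 (tetherin), which holds budding virus at the cell surface, gave 5168 and 5323 with scramble, against 46.5 and 86.6 with DMSO (6.15 ± 0.25). XAF1, a promoter of apoptosis, gave 4667 and 4122 with scramble, against 109.8 and 130.5 with DMSO (5.08 ± 0.19). For these 3 genes the gap between the arms was far wider than the spread within them, and the CEP701 arrays overlapped the DMSO arrays for MX1 and for BST2, whose promoter carries the overlapping matches shown above.

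OAS2 gave 1086 and 1288 on the scramble arrays, against 8.71 and 4.57 on the DMSO arrays (6.18 ± 0.32). OASL, a relative of the synthetases that aids RIGI, gave 699.7 and 724 with scramble, against 30.4 and 10.0 with DMSO (4.66 ± 0.67). Both were bright in the shRNA arm and dim in the drug arm. Among the remaining genes of that role, OAS1 (3.37), OAS3 (2.14), the RNA-binding kinase EIF2AK2 (PKR, 1.34) and the nuclease ISG20 (1.40) were all higher in scramble.

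IFIT1 gave 3759 and 4209 on the scramble arrays, against 38.6 and 112 on the DMSO arrays (5.70 ± 0.39). The other IFIT genes ran from 2.52 (IFIT5) to 3.21 (IFIT3). IFI27 gave 1962 and 1615 with scramble, against 8.63 and 20.3 with DMSO (6.24 ± 0.38). On the CEP701 arrays its mean signal was 4.27% of the scramble mean, and on the DMSO arrays 0.809%. For the others that passed with CEP701, these shares were 7.60% and 5.16% for IFI6, 19.3% and 10.7% for IFIT3, 22.3% and 13.1% for ISG15, 35.5% and 13.6% for IFIH1, and 48.0% and 10.5% for IFIT2. These genes were taken because they rose with CEP701 over DMSO, so a larger CEP701 share follows from that choice.

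Of the transcription factors, IRF7, which drives the type I interferon genes, gave 2097 and 3078 on the scramble arrays, against 244 and 348 on the DMSO arrays (3.08 ± 0.27, adjusted p = 2.34e-05). IRF9, the DNA-binding part of the factor that type I interferons activate, gave 1557 and 1901 with scramble, against 286 and 398 with DMSO (2.32 ± 0.26, adjusted p = 1.03e-04). Both genes were clear of overlap between the arms. IRF1, which interferon gamma induces most strongly, gave 509 and 418 with scramble, against 394 and 309 with DMSO, and did not pass (0.39, adjusted p = 0.216).

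The other 3 genes that did not pass were MX2 (-0.04), CMPK2 (0.20) and IFI16 (0.35). MX2, the relative of MX1 at the nuclear pore, gave 1281 and 1371 on the scramble arrays, against 1297 and 1430.2 on the DMSO arrays, with overlapping groups. CMPK2, a mitochondrial nucleotide kinase, gave 12453 and 11600.4 with scramble, against 10295 and 10576 with DMSO. IFI16, a DNA sensor, gave 8751 and 10621 with scramble, against 7767 and 7376 with DMSO. All 3 were already well above the filter in the drug arm. So were genes that passed, such as IFITM2, at 15625 and 16451 on the DMSO arrays.

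Of the 10 MX proteins and other effectors, all but MX2 and CMPK2 were higher in scramble, from 1.05 (PLSCR1, a membrane phospholipid scramblase) to 6.27 (MX1). The 7 PARP, DTX3L and nuclear proteins ran from 1.33 (SP110) to 5.08 (XAF1), and the 4 genes of the ISG15 system from 1.14 (USP18) to 2.92 (ISG15). Of the 9 IFITM and IFI genes, 8 passed, with IFITM2 lowest of those at 0.98. The RNA sensors stood at 2.84 (IFIH1), 2.60 (DHX58) and 1.26 (RIGI).

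**Figure D4:**
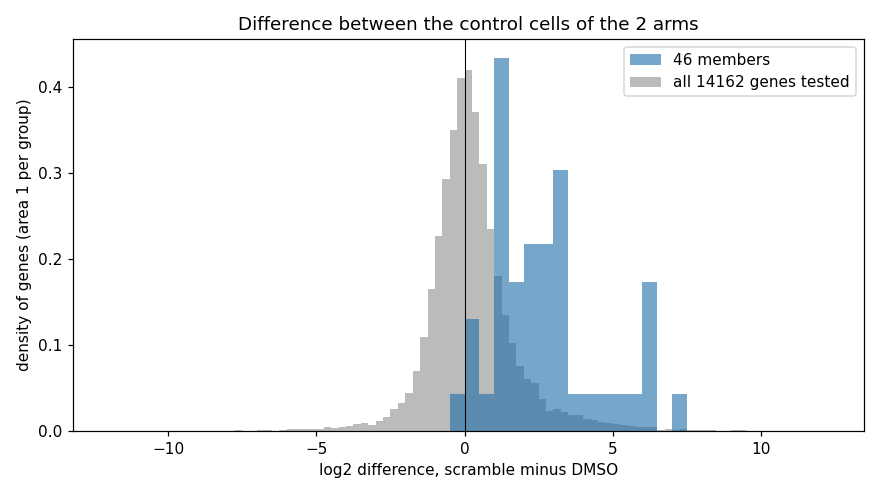
Distribution of the log2 difference, scramble minus DMSO, for the 46 interferon-stimulated genes (blue) and all 14162 genes tested (grey), each histogram with area 1. The 46 genes have a median of 2.28 and all genes 0.11, and 45 of the 46 are above 0.

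The other probe sets of these genes mostly ran the same way between the arms. The 46 genes had 81 probe sets in all, and 35 were not chosen. Scramble was above DMSO for 34 of these 35, with no filter applied, and at least 2-fold above for 28; the exception was a dim second probe set of HERC6 (-0.52). Of the 35, 12 were under 60.0 on at least 3 of the 4 drug-arm arrays. With CEP701, 28 of the 35 were above DMSO. OASL showed the largest gap between its probe sets for the drug: the chosen one gave 77.2 and 6.53 on the CEP701 arrays, against 30.4 and 10.0 on the DMSO arrays, and the other 115 and 91.4 with CEP701, against 5.85 and 8.22 with DMSO (log2 difference 2.73).

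Genes upstream of the response were read from the same fit. With CEP701, 3.74% of all genes rose and 2.04% fell. In scramble against DMSO, 25.5% were higher and 20.3% lower. The counts of the short lists that follow were not tested against these shares. Of 21 listed interferon ligand genes, 18 had a probe set naming 1 gene, and on every array 16 to 18 of these 18 were under 60.0. Only 2 could be tested, and 0 passed for CEP701. IFNL1, a type III interferon, was lower in scramble cells, at 35.4 and 23.9, against 130.3 and 70.9 with DMSO (-1.44). Of the 6 receptor genes, IL10RB, a chain of the type III receptor, rose with CEP701, to 3661 and 4079, against 2049.9 and 1506 with DMSO (1.13, adjusted p = 0.0145). Between the arms, 3 receptor genes were higher in scramble, IFNGR2 most (3.33), and IFNAR2, a chain of the type I receptor, was lower (-1.71).

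Of the receptor kinases, 3 of 3 tested did not pass for CEP701. JAK2, which the drug inhibits, gave 2025 and 2681 with CEP701, against 1669.6 and 1797 with DMSO (0.43), and was lower in scramble, at 513 and 561 (-1.67 against DMSO). Among 17 tested sensors, adaptors and IRFs outside the 46, STING1, the adaptor of DNA sensing, rose with CEP701 (0.80, adjusted p = 0.0449). In scramble 6 of these 17 were higher and 1 lower, beside 25.5% and 20.3% of all genes. Among 8 feedback inhibitors, SOCS3, which blocks JAK kinases, fell with CEP701, to 102 and 100.2, against 722 and 544 with DMSO (-2.52), and PTPN6, a phosphatase that dampens JAK signalling, rose (0.64). Of these 8, 5 were higher and 1 lower in scramble.

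A list of 40 other interferon-induced genes had 36 tested. Of these, 6 rose and 2 fell with CEP701, beside 3.74% and 2.04% of all genes. TMEM140 was the largest rise, at 99.5 and 80.2 with CEP701, against 9.76 and 12.3 with DMSO (2.24), and DDX60L, a helicase, was next (1.57). PNPT1, a mitochondrial RNA exonuclease, fell (-1.12), as did TRIM14, an adaptor of antiviral signalling (-0.95). In scramble against DMSO, 27 of the 36 were higher and 0 lower, with a median of 1.22. Of all genes, 25.5% were higher and 20.3% lower there. Antigen presentation genes had 14 tested: ERAP2, a peptide-trimming protease, rose with CEP701 (1.26), and in scramble 7 were higher and 3 lower. With PRMT5 shRNA, 0 genes of any of these 7 lists passed, where 0.00706% of all genes rose and 0.141% fell.

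Some markers of other blood cells differed between the arms as well. In scramble against DMSO, 25.5% of all genes were higher and 20.3% lower. Of the monocyte and granulocyte markers, 8 of 8 tested were higher in scramble than in DMSO, with a median log2 difference of 7.96. The summed signal of that list was 66613 to 102275 on the shRNA-arm arrays, against 5504 to 9189 on the drug-arm arrays. Its defining members S100A9, MPO, ELANE and CD14 were at 63.5 or less on every drug-arm array. S100A9, a calcium-binding protein of neutrophils and monocytes, gave 9925 and 10108 on the scramble arrays, against 7.55 and 7.78 on the DMSO arrays. Megakaryocyte markers had 5 of 8 higher in scramble, and the sum of that list was 50746 to 121431 in the shRNA arm, against 12500 to 13457 in the drug arm. Erythroid markers, the check of the labelled line, were mostly present in both arms. Of the 8 with a probe set, 0 or 1 was under 60.0 on each array. TAL1, a transcription factor of that list, was at 7336 to 8919 on all arrays, and 1 gene cannot identify the line. The erythroid markers had 1 of 8 higher and 2 lower in scramble. Their sums were 48861 to 61313 in the shRNA arm, against 69036 to 77228 in the drug arm. LILRA4 and CLEC4C, which define plasmacytoid dendritic cells, the strongest interferon producers, were under the filter in every group, although 3 of the 4 tested markers of that list were higher in scramble. On each drug-arm array 5 of the 6 markers of that list were under 60.0, so here too some passed the filter through the shRNA arm alone. Lymphocyte markers had 2 of 7 higher and 0 lower, and epithelial and fibroblast markers 3 of 8 higher and 2 lower. For lists of 7 or 8 genes, these counts and those of the erythroid markers are not far from the shares of all genes. The lymphocyte sum was nonetheless higher in the shRNA arm, at 3288 to 6895, against 897 to 1198 in the drug arm. The epithelial and fibroblast sum was 1746 to 6152 in the shRNA arm, against 1902 to 2119 in the drug arm. The part of these markers in the difference of the interferon-stimulated genes between arms was not tested. For CEP701 against DMSO, the erythroid receptor EPOR (1.09) was the 1 marker of these lists to pass, where 3.74% of all genes rose.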

How the data were processed

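What was deposited is a linear signal intensity for each of 54675 probe sets on each array. The authors obtained it with MAS5 (Affymetrix Expression Console), per the submitters' processing notes; no version is given there. Each array's mean, with the lowest and highest values trimmed, was found to be 500.0, and no genome build was needed. Probe sets were named from the platform annotation: 41097 name 1 gene, 1801 several and 11777 none, and 41043 symbols were updated through Entrez identifiers.

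From these signals, log2(signal + 10) was computed. Probe sets exceeding 60.0 (the median of the whole matrix) on 2 or more arrays were kept (32646), and the probe set of highest mean stood for its gene, giving 14162 genes. A single linear model held all 8 arrays as 4 groups, using limma 3.58.1 (lmFit and trended eBayes; 4 residual and 5.37 prior degrees of freedom) in R 4.3.3, with the package data.table, version 1.17.8; Benjamini-Hochberg adjustment was over all genes within a contrast, with threshold 0.05. The calculation was checked on simulated data. Summaries used Python 3.11.15 and pandas 2.3.3. The 46 genes, the pathway and marker lists and the promoters' rule were chosen with earlier results of these data known. Values on every array are given for genes that passed for CEP701 or PRMT5 shRNA, for the 8 largest differences between the arms, and for the 2 of lowest p in roles without such a gene; other genes named with values were chosen after their values were seen. In the pathway lists, up to 4 genes that passed for CEP701 were named, otherwise the 1 of lowest p. The shRNA arrays share title suffixes in pairs, and their deviations from the group means correlated across genes (r = 0.323); the drug arrays share a number alone (r = -0.0115). Tried alternatives were the added constant, the scaling, the filter, the probe set rule, the variance model, the arrays fitted, the replicate block and each array left out. Probe sets naming several genes or none were not analysed here.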

Additional observations from a re-analysis of the deposited data

How the results depend on the processing

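Under 22 alternatives, scramble against DMSO kept 42 to 44 of the 46 genes higher, or 40 of 44 and 31 of 34 tested without the probe sets whose suffix marks shared probes, and each of the genes that passed kept its direction and its call in every alternative that tested it. PRMT5 shRNA against scramble had 0 genes past the test in all of them, single arrays left out included. For CEP701 against DMSO, the count of 6 was 3 with equal median signal (6.38% of all genes; median of all genes -0.14, of the 46 genes 0.05), 3 with poly-A scaling (7.48% of all genes), 1 with eBayes without trend (1.18%), 12 with the arrays of the 2 groups alone (22.7% of all genes passed) and 17 with a replicate block in both arms or in the shRNA arm alone (21.5% and 22.3% of all genes). It ran from 0, without any 1 of the drug-arm arrays (0.0424% to 0.353% of all genes), to 10, without 1 or the other PRMT5 shRNA array (8.61% and 8.71%). Of 131 single-gene results across these alternatives, 86 kept the call, 45 lost it and 0 reversed. The drug effect minus the knockdown effect, with 0 genes, had 8 with the replicate block in both arms (16.2% of all genes), 9 with it in the shRNA arm (17.3%), and 0 to 3 with single arrays left out, the 3 without PRMT5 shRNA replicate 2 (3.63%). The cause was not tested, beyond the change in the number of arrays or of terms fitted. Signals near the bottom of the scale limit the folds of DHX58, OAS2, OASL, IFI27 and IFI44L.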

Other observations

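Neighbouring genes of the list, ordered by RefSeq, often differed in size between the arms. On chromosome 21, MX1 had a log2 difference of 6.27 for scramble minus DMSO, and MX2 next to it -0.04. On chromosome 1, IFI44L was at 7.16 and IFI44 at 1.19, and on chromosome 2, RSAD2, a radical enzyme that makes a chain-terminating nucleotide, was at 3.02 and CMPK2, which supplies its substrate, at 0.20. The 3 synthetase genes on chromosome 12 stood at 3.37 (OAS1), 2.14 (OAS3) and 6.18 (OAS2), with no other coding gene between them. The size of such gaps depends on the probe set. Those not chosen stood at 3.55 for OAS1, 1.07 for OAS3, 2.72 and 2.83 for OAS2, and 2.66 for IFI44. Other neighbours were closer, such as HERC6 (1.21) and HERC5 (1.18) on chromosome 4, and IFIT2 (3.17) and IFIT3 (3.21) on chromosome 10.

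The 26 genes with the response-element core (GAAA, any 2 bases, GAAA) in a promoter window had a median log2 difference of 2.38 for scramble minus DMSO, running from 1.05 to 7.16, and the 11 without it 1.33, running from 0.20 to 5.08. For CEP701 minus DMSO the medians were 0.16 for the 26 genes with the motif and 0.59 for the 11 without. Both comparisons use the same DMSO arrays, and the split by motif was not tested.

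By size of rise in scramble over DMSO, 6 of the 46 genes were among the 100 largest of all genes tested and 12 among the 500 largest, IFI44L highest at rank 31. These include IFI44L, IFI27, OAS2 and OASL, which passed the filter through the shRNA arm alone. No gene of the list was among the 10 largest.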
